A study of Homo sapiens with 6 samples.

Results

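The BCL2 family is described here through 10 genes: the survival genes BCL2, BCL2L1, MCL1 and BCL2A1, the pore-forming effector BAK1, and the BH3-only genes BCL2L11, BID, BIK, PMAIP1 and BMF. They were found by current or older gene symbol among 19775 named genes, and 30 of the 54675 probe sets named 1 of them and no other gene. All 10 members had at least 1 such probe set, from 1 each for BCL2A1, BAK1, BIK and BMF up to 7 for BCL2L11. The members were compared between CL1-5 and CL1-0, a pair of human lung adenocarcinoma cell lines derived from the same parental line, CL1. CL1-5 is the highly invasive line and CL1-0 the poorly invasive one. Both were grown without any test treatment in RPMI medium with fetal bovine serum and antibiotics, and total RNA of 3 biological repeats per line was hybridised to 1-colour oligonucleotide arrays. Each group is 1 cell line, so invasiveness and any other difference between the lines cannot be told apart.

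Proteins of the BCL2 family decide whether the outer mitochondrial membrane stays intact. BAK1 and its relative BAX open that membrane when activated, survival members such as BCL2, BCL-XL (the long product of BCL2L1), MCL1 and BFL1 (the product of BCL2A1) hold them in check, and BH3-only proteins either activate the effectors or occupy the survival proteins. Solid tumours, those of the lung included, often rely on BCL-XL and MCL1 for survival.

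Signals below are in the deposited units, and array medians lay between 30.2 and 30.9. Folds are log2 changes of CL1-5 over CL1-0 after a constant of 6.85 was added to each signal, which understates the change of dim genes. Tests were made with limma over the 33777 probe sets above the 40th percentile of their array (19.5 to 20.3 signal units, a stand-in for background) on at least 3 arrays, with Benjamini-Hochberg adjustment over all of them, and "called" means an adjusted p under 0.05. The number of arrays, 3 per line throughout, limits the precision of every value. Each marker below was read through its brightest probe set on average, not of the x type, which can bind related transcripts, where another existed. Choosing the brightest favours signals above the percentile. Of 6 epithelial markers, 4 lay above that percentile on every CL1-5 array and 5 on every CL1-0 array. KRT18, read by a probe set of the x type, averaged 4222 ± 417 signal units in CL1-5 and 46.5 ± 7.85 in CL1-0 (SD, n = 3 each). EPCAM lay at or under the percentile on all CL1-5 arrays, and KRT19 lay there on all 6 arrays. The lung markers NKX2-1, NAPSA, SFTPB and SFTPC lay above the percentile on all 6 arrays at means of 25.0 to 92.5 signal units in CL1-5 and 26.9 to 99.0 in CL1-0. Of 4 blood markers, PTPRC, CD14 and LYZ lay at or under the percentile on all 6 arrays, and the T cell gene CD3E lay above it on all 6, at 23.7 ± 4.30 in CL1-5 and 24.6 ± 2.51 in CL1-0. Of 5 fibroblast and endothelial markers, DCN, LUM and CDH5 lay there on all 6 arrays too, and PECAM1 averaged 115 ± 4.24 in CL1-5 and 49.8 ± 6.13 in CL1-0. The part of such differences in the results below was not tested.

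Of the 30 member probe sets, 27 were tested, and 13 were called higher and 3 lower in CL1-5. Over all probe sets tested, 19.8% were called higher and 24.6% lower. With each gene represented by its brightest probe set, 7 of 10 members were higher (PMAIP1, BCL2L1, BCL2A1, BMF, MCL1, BCL2L11 and BAK1), BID was lower, and BCL2 and BIK were not called. BCL2A1 passed the filter only through its CL1-5 arrays, so it could only be called higher. The background for genes was 22.1% higher and 26.8% lower among 14828 genes. The median log2 fold change of the 10 members was 0.55, or 0.40 with BCL2A1 at its bound, beside -0.03 over all genes tested. The 10 members were chosen with earlier results of these data known. The members span -0.74 for BID to 1.82 for PMAIP1, and 95.9% of all genes tested had a smaller fold change than PMAIP1.

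**Figure D1:**
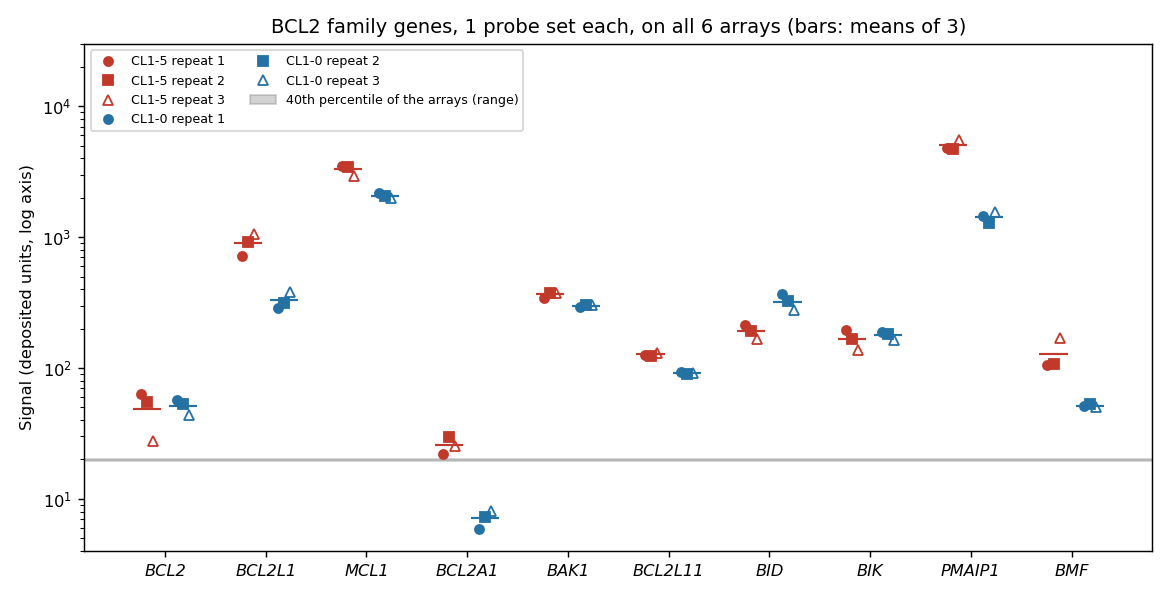
Signal of each BCL2 family gene on all 6 arrays, through 1 probe set per gene (log axis; red, CL1-5; blue, CL1-0; circles, squares and open triangles, repeats 1, 2 and 3; horizontal bars, means of 3 arrays; grey band, 40th percentile of the arrays). The lines do not overlap for PMAIP1, BCL2L1, BCL2A1, BMF, MCL1, BCL2L11 and BAK1, which lay higher in CL1-5, nor for BID, which lay lower. Of the 60 other pathway genes tested, 38 did not overlap between the lines either. The share over all genes tested was not computed.

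Among the survival genes, BCL2L1, whose long product BCL-XL keeps BAX and BAK1 inactive, was higher in CL1-5. Its brightest probe set, 212312_at, gave 715, 926 and 1065 signal units on the CL1-5 arrays and 290.1, 313 and 382 on the CL1-0 arrays. The lowest CL1-5 array thus lay well above the highest CL1-0 array. The log2 fold change was 1.43 (SE 0.16, adjusted p = 2.3e-04), a value above that of 94.4% of genes. Probe set 206665_s_at gave 265, 327 and 272 in CL1-5 and 83.6, 97.5 and 82.4 in CL1-0, and changed by 1.64 on the log2 scale (SE 0.12). For 215037_s_at the signals were 296, 333 and 258 in CL1-5 and 81.6, 83.4 and 74.5 in CL1-0, and the change was 1.80 (SE 0.12). These 3 probe sets were all called higher, with no overlap between the lines. The fourth, 231228_at, overlapped between the lines at 55.3 ± 2.35 in CL1-5 and 56.8 ± 11.8 in CL1-0 (SD, n = 3 each), and its log2 fold change of -0.02 had a 95% interval of -0.36 to 0.33. Its sign turned when CL1-0 repeat 1 or 2 or CL1-5 repeat 2 was left out.

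MCL1, a short-lived survival protein that binds BAK1 and the BH3-only proteins NOXA and BIM, was bright in both lines and higher in CL1-5. Probe set 200797_s_at gave 3524, 3418 and 2950.2 signal units in CL1-5 and 2172, 2056 and 1984 in CL1-0, without overlap. Its log2 fold change was 0.67 (SE 0.09, adjusted p = 4.2e-04). The same separation of the lines appeared for 200798_x_at, of the type that can bind related transcripts, at 3376, 3671 and 3383 in CL1-5 and 1719, 1740.4 and 1589 in CL1-0. That probe set changed by 1.04 (SE 0.07), and the dimmer 214056_at by 1.46 (SE 0.19). Probe sets 214057_at (0.40, adjusted p = 0.13) and 227175_at (0.34, adjusted p = 0.071) were not called, though blocking on the repeat number called both (adjusted p of 0.0076 and 0.019). All 6 MCL1 probe sets had a positive log2 fold change, but they ranged from 0.34 to 1.70, so the size of the MCL1 difference depends on the probe set.

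Within MCL1, 200796_s_at set repeat 3 of both lines apart. It gave 816, 850.3 and 301 signal units in CL1-5 and 275, 259 and 76.9 in CL1-0, so repeat 3 was the lowest array of each line. Repeat by repeat, CL1-5 exceeded CL1-0 by log2 differences of 1.55, 1.69 and 1.88, and the lines did not overlap. The log2 fold change was 1.70 (SE 0.55, adjusted p = 0.036), and leaving out CL1-5 repeat 1 gave an adjusted p of 0.11 and CL1-5 repeat 2 of 0.12, while CL1-0 repeat 3 gave 0.059 with a change of 1.14. Blocking on the repeat number gave an adjusted p of 9.0e-10. Repeat 3 also had the highest ratio of 3′ to 5′ signal for the ACTB control probe sets, which reads RNA integrity, at log2 values of 0.91 in CL1-5 and 1.17 in CL1-0, against 0.31 to 0.40 in CL1-5 and 0.44 to 0.53 in CL1-0 for the other repeats. The part of RNA quality in the low repeat 3 signals was not tested.

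**Figure D2:**
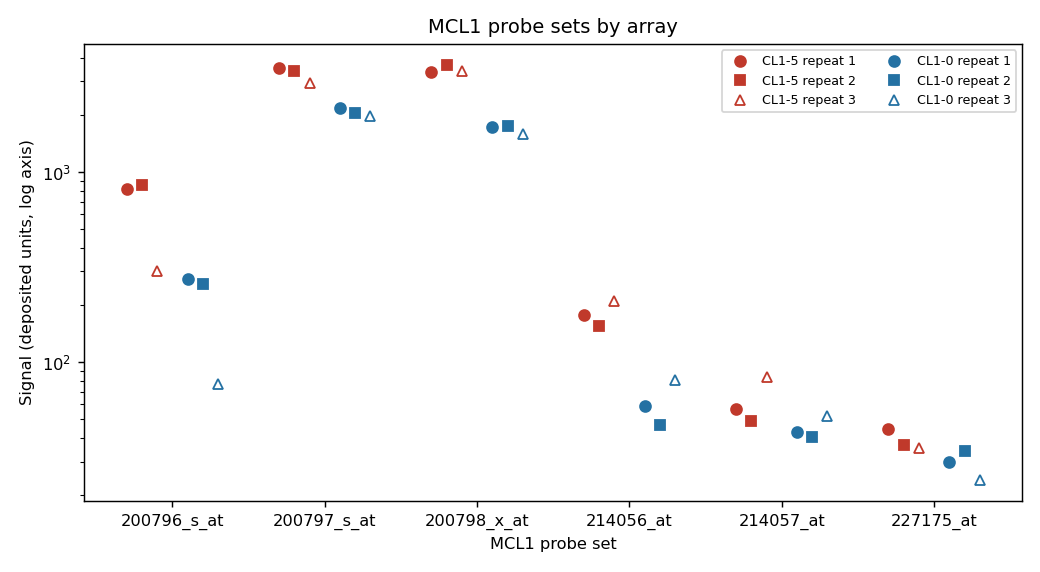
Signal of the 6 MCL1 probe sets on each array (log axis; red, CL1-5; blue, CL1-0; circles, squares and open triangles, repeats 1, 2 and 3). Repeat 3 lies far below repeats 1 and 2 of the same line for 200796_s_at, at 301 in CL1-5 and 76.9 in CL1-0, while for 214056_at and 214057_at repeat 3 is the highest array of each line.

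BCL2A1, which encodes the NF-kappaB-induced survival protein BFL1 and is best known from blood cells and melanocytes, was dim. Its probe set 205681_at gave 22.2, 29.5 and 25.3 signal units in CL1-5 and 5.92, 7.27 and 8.14 in CL1-0. All CL1-5 arrays lay just above the 40th percentile and all CL1-0 arrays under it, so only a bound can be given. BCL2A1 was at least 1.28-fold higher in CL1-5. The limma test (adjusted p = 5.3e-05) was made on the fitted log2 change of 1.22, which uses the CL1-0 signals under the percentile. BCL2A1 passed the filter only through its CL1-5 arrays, so that call does not stand as evidence of direction. The 4 blood markers, of which CD3E alone lay above the percentile, summed to 53.8 to 60.2 signal units on the CL1-5 arrays and 60.2 to 62.5 on the CL1-0 arrays, and the part of blood cells in the BCL2A1 difference was not tested. With the filter at the 60th percentile BCL2A1 was not tested.

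BCL2, the founding survival gene of the family, was read differently by its 4 probe sets. Probe set 203685_at gave 21.1, 19.1 and 20.1 signal units in CL1-5 and 47.2, 48.5 and 42.2 in CL1-0, without overlap, and its log2 fold change was -0.97 (SE 0.09, adjusted p = 7.8e-05). With an added constant of 50 it was -0.45. The CL1-5 signals of that probe set lay close to the stand-in for background. Probe set 207004_at, the brightest on average, gave 63.2, 54.8 and 27.8 in CL1-5 and 56.7, 53.4 and 43.5 in CL1-0, with the CL1-5 arrays lying on both sides of the CL1-0 arrays. Its change of -0.12 (adjusted p = 0.74) had a 95% interval of -0.71 to 0.46, and without CL1-5 repeat 3, the lowest array, it was 0.19 (adjusted p = 0.35). Probe sets 203684_s_at (means of 17.7 in CL1-5 and 22.1 in CL1-0) and 207005_s_at (17.7 in CL1-5 and 24.3 in CL1-0) failed the filter.

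BAK1, which oligomerises to open the outer membrane, differed little. It gave 341, 376 and 378 signal units in CL1-5 and 292, 305 and 301 in CL1-0. The lines did not overlap, with a log2 fold change of 0.28 (SE 0.09, adjusted p = 0.032). Among all genes tested, 45.9% had a smaller change in either direction. BAK1 was not called with no filter on dim probe sets (adjusted p = 0.052), nor after leaving out CL1-5 repeat 2 (0.13) or 3 (0.086) or CL1-0 repeat 1 (0.088), 2 (0.079) or 3 (0.053), with changes between 0.26 and 0.29.

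Of the BH3-only genes, PMAIP1 rose most. It encodes NOXA, a BH3-only protein that binds MCL1 and BFL1 and promotes MCL1 degradation. Probe set 204285_s_at gave 4839, 4766 and 5576 signal units in CL1-5 and 1443, 1276 and 1570.0 in CL1-0. Every CL1-5 array lay far above every CL1-0 array, and the log2 fold change was 1.82 (SE 0.10, adjusted p = 4.0e-06). The second probe set, 204286_s_at, gave 2821, 3530.5 and 3296 in CL1-5 and 786, 697 and 1030.0 in CL1-0, a change of 1.94 (SE 0.15). Both probe sets of PMAIP1 therefore gave the same call at a like size. The genes whose profile over the 6 arrays, centred on its own mean, lay nearest to that of PMAIP1 were CARINH, LPAR3 and DENND2D. Their Euclidean distances were 0.15, 0.17 and 0.17 on the log2 scale, and their log2 fold changes 1.88, 1.87 and 1.76. With only 2 lines compared, a like fold change is built into this choice, which shows no shared regulation. DENND2D averaged 18.6 in CL1-0, under the percentile.

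BMF, whose product is held at the cytoskeleton by a dynein light chain until released, was higher in CL1-5. It gave 105, 108 and 169.7 signal units in CL1-5 and 51.4, 52.8 and 50.4 in CL1-0. CL1-5 repeat 3 was the high array of its line, and the lines did not overlap. The log2 fold change was 1.17 (SE 0.18, adjusted p = 1.1e-03), and without CL1-5 repeat 3 it was 0.96 (adjusted p = 2.8e-04).

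BCL2L11, which encodes BIM, a BH3-only protein that binds all survival members, showed a small increase on 1 of 6 tested probe sets. Probe set 1558143_a_at, which stands for the gene, gave 127, 124 and 131 signal units in CL1-5 and 93.1, 90.1 and 91.8 in CL1-0. The lines did not overlap, and the change was 0.44 on the log2 scale (SE 0.09, adjusted p = 4.8e-03). The nearly as bright 1553088_a_at gave 106, 105 and 105 in CL1-5 and 99.9, 108 and 106 in CL1-0. Its lines overlapped, and the change of 0.01 had a 95% interval of -0.20 to 0.22. Without CL1-5 repeat 1 or 3 that probe set was the brightest and stood for the gene, which was then not called, although 1558143_a_at was called without any 1 array. Probe set 225606_at was 0.28 (adjusted p = 0.092), and was called when blocked on the repeat number (adjusted p = 0.028). The other 3 tested changed by -0.24 to 0.19 (adjusted p of 0.055 to 0.46), and 208536_s_at failed the filter, at or under the percentile on all 6 arrays. With array weights, 1555372_at was called lower (-0.18, adjusted p = 0.020). The same weights called 222343_at (0.39, adjusted p = 0.0022) and 225606_at (0.23, adjusted p = 0.020) higher.

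BID, the BH3-only protein that caspase 8 cleaves to carry death receptor signals to mitochondria, was the 1 member gene called lower. Probe set 211725_s_at gave 215, 191 and 166 signal units in CL1-5 and 368, 324 and 276 in CL1-0. The lines did not overlap, and the log2 fold change was -0.74 (SE 0.14, adjusted p = 3.3e-03). Probe set 204493_at changed by -0.59 (SE 0.11). The third, 227143_s_at, was -0.29 (adjusted p = 0.062) and was called when blocked on the repeat number (adjusted p = 0.011). The profiles nearest to that of BID were those of STOML2, FGGY and TACC2, at distances of 0.07, 0.08 and 0.08 over the 6 arrays. A like fold change is built into this choice too.

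BIK, a BH3-only protein of the endoplasmic reticulum, gave 196, 166 and 138 signal units in CL1-5 and 189.6, 182 and 165 in CL1-0. The lines overlapped, and its log2 fold change of -0.11 (adjusted p = 0.58) had a 95% interval of -0.43 to 0.21.

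**Figure D3:**
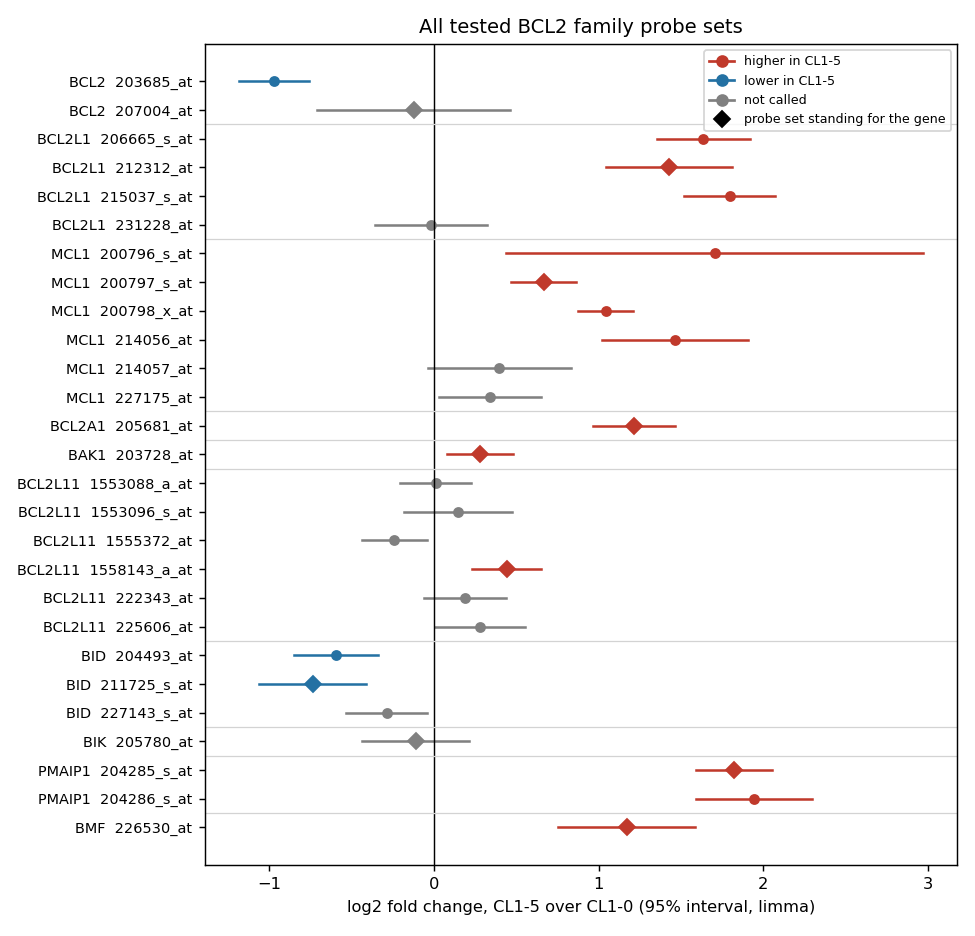
Log2 fold change of CL1-5 over CL1-0 with its 95% interval for the 27 tested member probe sets (red, called higher in CL1-5; blue, called lower; grey, not called; diamonds, the probe set standing for each gene). For BCL2A1 the fitted value is drawn, not the bound. The probe sets of PMAIP1 sit together at 1.82 and 1.94, while those of MCL1 spread from 0.34 to 1.70 and those of BCL2 from -0.97 to -0.12.

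Upstream sequence was at hand for 8 of the 10 members in the RefSeq promoter table (GRCh38.p14). The 250 bases before the outermost annotated start are shown for the 4 of them with a fitted log2 fold change above 1, all called higher in CL1-5, although for BCL2A1 only the bound above is measured. They were searched on both strands for 6 motifs of factors known to act on this family or on inflammatory genes: the interferon-stimulated response element core (GAAA, any 2 bases, GAAA), the kappaB core (GGG, any 5 bases, CC), the gamma-activated site TTCNNNGAA, the AP-1 site TGANTCA, the cyclic AMP response element core ACGTCA and the E-box CACGTG. Capitals mark the matches.
PMAIP1 (chr18:59899746-59899995, + strand): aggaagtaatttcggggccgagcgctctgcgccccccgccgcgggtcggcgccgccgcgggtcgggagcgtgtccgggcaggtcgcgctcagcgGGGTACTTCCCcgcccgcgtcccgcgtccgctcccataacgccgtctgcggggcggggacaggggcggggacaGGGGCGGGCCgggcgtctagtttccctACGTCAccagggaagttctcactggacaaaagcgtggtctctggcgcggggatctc
BCL2L1 (chr20:31723964-31724213, - strand): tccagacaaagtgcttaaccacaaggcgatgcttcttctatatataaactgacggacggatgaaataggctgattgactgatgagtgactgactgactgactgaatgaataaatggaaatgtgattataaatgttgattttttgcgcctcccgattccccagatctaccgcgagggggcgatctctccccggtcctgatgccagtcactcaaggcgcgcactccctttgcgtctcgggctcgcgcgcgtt
BCL2A1 (chr15:79971197-79971446, - strand): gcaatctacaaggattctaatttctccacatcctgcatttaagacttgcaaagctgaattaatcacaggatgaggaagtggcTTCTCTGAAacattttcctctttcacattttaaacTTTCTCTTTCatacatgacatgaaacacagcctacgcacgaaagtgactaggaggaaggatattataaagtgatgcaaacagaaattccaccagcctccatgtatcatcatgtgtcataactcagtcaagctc
BMF (chr15:40108880-40109129, - strand): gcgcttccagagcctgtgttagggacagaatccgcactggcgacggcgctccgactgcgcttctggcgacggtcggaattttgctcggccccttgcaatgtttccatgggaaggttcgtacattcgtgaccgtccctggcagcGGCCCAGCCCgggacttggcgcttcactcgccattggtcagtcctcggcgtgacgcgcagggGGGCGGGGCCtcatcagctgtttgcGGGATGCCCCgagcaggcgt

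BCL2A1 held 1 match to the interferon-stimulated response element core, 133 to 124 bases before the start, and 1 to the gamma-activated site, 168 to 160 bases before it. Over all 35116 windows of this length in the table, 3.02% held the first motif and 6.57% the second. PMAIP1 held 1 cyclic AMP response element core 56 to 51 bases before the start, a motif found in 7.10% of windows, and 3 kappaB matches, of which 2 overlap each other. BMF held 3 kappaB matches, and BCL2L1 had no match at this start. Counting every annotated start, 6 of the 8 members with sequence held a kappaB match: BAK1, BCL2, BCL2L11, BID, BMF and PMAIP1. They include BID, called lower, and BCL2, not called as a gene. The kappaB core is loose and was present in 54.4% of all windows, and the AP-1 site, present in 6.57%, was in no member's window. A match describes the letters only, and shows no binding in these cells.

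Other genes of the pathway were taken from lists written with earlier results of these data known. Of 68 such genes, 60 were tested, and 18 were higher and 16 lower in CL1-5, with a median log2 fold change of 0.02. The background, which also applies to each list below, was 22.1% of all genes tested higher and 26.8% lower, and the share of the 60 called lower was close to it. The remaining 8 were not analysed here.

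Among 12 other BCL2 relatives tested, 3 were higher, 2 lower and 7 not called, with a median of -0.10. The BH3-only gene HRK averaged 68.6 ± 15.4 signal units in CL1-5 and 273 ± 37.0 in CL1-0 (SD, n = 3 each), a log2 fold change of -1.90 (SE 0.17), and its 3 other tested probe sets were called lower too. The mitophagy receptors BNIP3 (1.23, SE 0.08) and BNIP3L (0.62, SE 0.08) and the survival gene BCL2L2 (0.64, SE 0.08) were higher, and BCL2L12 (-0.65, SE 0.14) was lower. BAX, the second pore-forming effector and named here after its values were seen, was at -0.23 with an SE of 0.30 (adjusted p = 0.59).

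Of 10 tested genes for mitochondrial proteins of cell death and the apoptosome, 4 fell: the flavoprotein AIFM1 (-2.04, SE 0.11), the channel VDAC3 (-1.54, SE 0.08), cytochrome c, CYCS (-1.10, SE 0.07), and the inner membrane fusion GTPase OPA1 (-0.92, SE 0.15). CYCS averaged 2961 ± 171 signal units in CL1-5 and 6337 ± 377 in CL1-0, and 1 of its 2 other tested probe sets was called lower. Another 3 rose, among them APAF1, the scaffold of the apoptosome (0.37, SE 0.11, adjusted p = 0.024), not called after leaving out CL1-5 repeat 2 (adjusted p = 0.10) or CL1-0 repeat 2 (0.066) or 3 (0.055), and whose 2 other tested probe sets were at 0.02 and 0.05. The list's median was 0.13.

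Of 10 caspases and caspase inhibitors tested, 5 were higher and 2 lower, with a median of 0.22. CASP8, the initiator caspase that cleaves BID, averaged 1455 ± 97.0 signal units in CL1-5 and 146 ± 30.1 in CL1-0 (log2 fold change 3.28, SE 0.15). Its inhibitor CFLAR was at 1.42 (SE 0.10), with 10 of 11 other probe sets called higher and 1 called lower. CASP2 (0.64, SE 0.10) and CASP6 (0.60, SE 0.16) rose, and the inhibitor BIRC5 fell by 0.98 on the log2 scale (SE 0.10). Of 6 other tested CASP2 probe sets 3 were called higher, and of 3 other BIRC5 probe sets 2 were called lower. The other CASP6 probe set was not called, and CASP6 itself was not after leaving out CL1-0 repeat 1 (adjusted p = 0.051) or 2 (0.058).

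Among 17 transcription factors known to act at one or more member genes, 5 were higher, 4 lower and 8 not called, with a median of 0.05. IRF1, the interferon-induced factor, averaged 759 ± 91.5 signal units in CL1-5 and 110.0 ± 2.89 in CL1-0 (2.71, SE 0.11). MYC (1.06, SE 0.15) and the NF-kappaB subunit RELB (0.93, SE 0.15) were higher. Of the other NF-kappaB subunits listed, NFKB1 (0.38, SE 0.10) was higher and NFKB2 (-0.32, SE 0.11) lower. RELA (0.33, adjusted p = 0.076) and REL (0.20, adjusted p = 0.23) were not called. These other subunits were named here after their values were seen. MITF, the melanocyte factor that acts at BCL2 and BCL2A1, was at -2.94 (SE 0.12), and the stress-induced DDIT3 at -1.49 (SE 0.16). Of 11 proteins that hold, modify or turn over family members, 2 were higher and 4 lower, with a median of -0.08. USP9X, a deubiquitinase that stabilises MCL1, fell by 0.71 on the log2 scale (SE 0.13), and the ubiquitin ligase components that mark MCL1 for degradation, FBXW7 (-0.59, SE 0.14) and BTRC (-0.96, SE 0.13), were lower too. MARCHF5, a mitochondrial ubiquitin ligase, was at 0.52 (SE 0.11) and the kinase MAPK8 at 0.55 (SE 0.10), with 1 of 4 other MAPK8 probe sets called lower. Only 1 of 3 other probe sets was called lower for BTRC, and likewise for USP9X, and the other MARCHF5 probe set was not called.

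**Figure D4:**
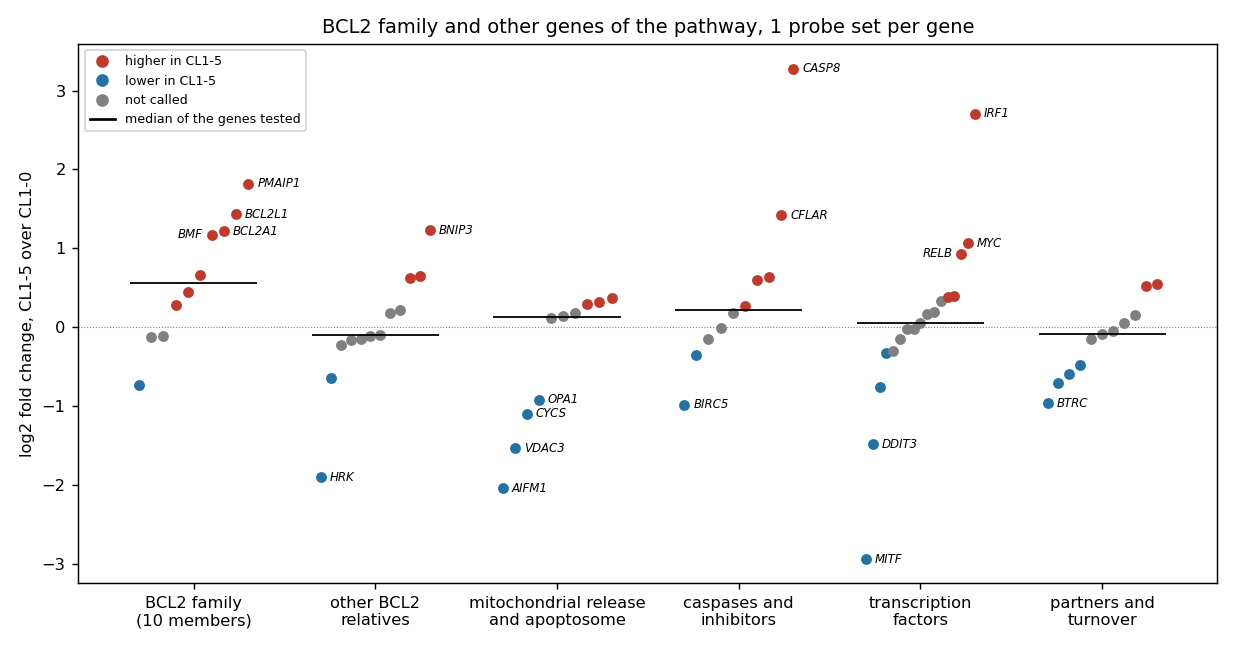
Log2 fold change of CL1-5 over CL1-0 for the 10 BCL2 family genes and the 60 other pathway genes tested, 1 probe set per gene, by list (red, called higher in CL1-5; blue, called lower; grey, not called; black bars, medians of the genes tested; BCL2A1 at its fitted value, not its bound). The median of the 10 members is 0.55, or 0.40 with BCL2A1 at its bound. Those of the other lists lie between -0.10, for the other BCL2 relatives, and 0.22. The members and lists were chosen with earlier results of these data known.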

How the data were processed

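The deposited values are linear array intensity signals, and MAS5 is named without a version in the submitters' processing notes; the sources used here give no later step. Of 54675 probe sets, 41091 carried 1 gene symbol in the platform annotation, 1801 several, 11721 none and 62 were controls, and 41037 matched RefSeq by gene ID. From these, log2 of the signal plus 6.85 (the 10th percentile over every array value) was tested with limma 3.58.1 in R 4.3.3 (lmFit, eBayes with trend), CL1-5 against CL1-0, over non-control probe sets above their array's 40th percentile on at least 3 arrays, with Benjamini-Hochberg adjustment over all of them. The fit was also run on simulated data with noise drawn separately for each array. That simulation held no pairing of the repeats, so it does not cover the shared deviations given below.

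A gene was represented by its probe set with the highest mean, not of the x type where another passed. A line at or under the percentile on all its arrays gives only a bound. Named genes were all members, up to 5 called genes per pathway list with the largest absolute change, the markers, and the 3 nearest profiles of the members that rose and fell most. The members and lists were chosen with earlier results of these data known. The labels call the repeats biological, without saying how they were separated, so p-values measure only the spread between these samples. Repeat numbers are shared between the lines. Deviations from the line means correlated at 0.475, 0.280 and 0.649 for repeats 1, 2 and 3 over 14828 genes. The main fit left this pairing out, so its SEs, intervals, adjusted p-values and calls are unpaired. A fit with the repeat number as a block is an alternative, given where it changes a member's call. Alternatives covered the constant, filter, scaling, prior variance, array weights, block, threshold and arrays left out.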

Additional observations from a re-analysis of the deposited data

How the results depend on the processing

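Member genes called higher numbered 7, and 5 to 6 with 1 array left out, so each array left out lost at least 1 call: BCL2L11 without CL1-5 repeat 1, BCL2L11 and BAK1 without CL1-5 repeat 3, and BAK1 without any of the other 4. They were 6 with no filter, with the 60th percentile filter and at an adjusted p under 0.01. Over all genes tested, 3278 of 14828 were called higher, and 2724 to 3200 with 1 array left out. The all-gene numbers were 3244 of 19775 with no filter and 3051 of 11430 with the 60th percentile filter. BID was called lower under every alternative run with a test. With the repeat number as a replicate block, 16 member probe sets were higher and 4 lower, against 13 and 3, and 22 pathway genes were higher and 18 lower, against 18 and 16. Array weights gave 5 lower member probe sets. Over all probe sets tested, array weights called 9195 higher and 11790 lower, and the block 8719 and 10999, against 6686 and 8316. The sign turned only for uncalled probe sets: BCL2 207004_at was 0.018 with array weights, 0.086 with repeats 1 and 2 alone and -0.32 to 0.19 with 1 array left out. BCL2L11 1553088_a_at was -0.019 under quantile normalization, -0.016 with array weights and -0.021 to 0.033 with 1 array left out. With 1 array left out, BCL2L1 231228_at was -0.17 to 0.10 and BIK 205780_at -0.23 to 0.014. The causes were not tested. Signals near the 40th percentile, as for BCL2A1 and BCL2 203685_at, limit the size of a change that can be read.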
